A study of Mus musculus with 6 samples.

Results

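The 37 probes described here, from mmu-miR-127 and mmu-miR-379 to mmu-miR-329 and mmu-miR-410, measure mature microRNAs (miRNAs) of the imprinted Dlk1-Dio3 locus on mouse chromosome 12. They were chosen by name, as the unstarred strands of that locus, and all 37 were found among the 707 mouse miRNA probes of the array. Whole dorsal skin was profiled from C3H/HeJ mice, inbred animals of which a part lose hair without any induction through the autoimmune disease alopecia areata (AA). Of the 6 one-colour arrays, 3 held AA skin with hair loss and 3 held normal haired skin of unaffected control mice. All animals were of the 1 strain and the labels name no treatment, and age and sex were not stated in the labels. Per the design note a mouse gave more than 1 sample, with no link to arrays. Arrays may therefore share a mouse, and the spread between them may in part lie within mice or be technical. The tests below treat every array as independent.

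In the Dlk1-Dio3 locus the 2 parental chromosomes are used differently. The paternal copy expresses the protein-coding genes Dlk1, Rtl1 and Dio3, and the maternal copy expresses a series of long noncoding RNAs (Meg3, the Rtl1 antisense transcript, Rian and Mirg) from which the miRNAs are cut. These miRNAs are best known from embryo, placenta and brain, and from developing or regenerating skeletal muscle, and most adult tissues carry much less of them. By role and position the members form 6 probes of the Rtl1 antisense group (miR-127, miR-136, miR-431, miR-433 and both arms of miR-434), miR-370, which lies inside Rian, and 30 probes of the miR-379 to miR-410 cluster.

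The target sequences show which molecules the results turn on. Of the 37 sequences in the array files, 34 matched a RefSeq mature miRNA of the GRCm38.p6 mouse build letter for letter, all 34 on the plus strand and within 153 kb of each other. The exceptions are miR-376c, miR-485 and miR-487b. The members that came above the empty spots of at least 2 arrays are given first. The pair that did so, by the mean of their spots, on AA replicate 2 alone follows. The seed (bases 2 to 8, which pair with target mRNAs) is in capitals.
miR-127: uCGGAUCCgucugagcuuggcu
miR-379: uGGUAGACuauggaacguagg
miR-409-3p: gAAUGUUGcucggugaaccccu
miR-329: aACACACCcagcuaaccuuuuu
miR-494: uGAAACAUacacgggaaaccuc
These lie at chr12:109592888-109592909 (miR-127), chr12:109709065-109709085 (miR-379), chr12:109743204-109743225 (miR-409-3p), chr12:109713541-109713562 (miR-329) and chr12:109715367-109715388 (miR-494). miR-127 lies inside the annotated span of Rtl1, the gene to which it is antisense, and miR-409-3p inside Mirg.

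No seed is shared inside the group: the 37 probes carry 37 different seeds. Close relatives nevertheless occur, and they are shown because similar targets can share signal on an array.
miR-376a: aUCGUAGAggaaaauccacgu
miR-376b: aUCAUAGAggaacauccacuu
miR-376c: aACAUAGAggaaauuucacgu
miR-300: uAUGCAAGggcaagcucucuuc
miR-381: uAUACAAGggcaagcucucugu
miR-495: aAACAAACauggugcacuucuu
miR-543: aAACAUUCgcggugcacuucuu
miR-376a differs from miR-376b by 3 edits and from miR-376c by 4, miR-300 from miR-381 by 3, and miR-495 from miR-543 by 4. Outside the locus, 4 array probes carry a member's seed, among them miR-362-3p of chromosome X with the seed of miR-329. None of those 4 was above the empty spots on any array.

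Levels were read as raw spot intensities, with 5 spots per probe on each array, and set against the 145 empty control spots of the same array. Detection required a spot mean beyond the 95th percentile of those empty spots. From here on, 3 values for a group stand in the order of its replicates 1 to 3. The level was 344, 197 and 229 intensity units for the unaffected arrays and 240, 599 and 572 for the AA arrays. The threshold was uneven in strictness, because the median miRNA probe (168 in unaffected replicate 1 and 391 in AA replicate 2) was far dimmer than the median empty spot (274 and 490) on 2 arrays, slightly dimmer in unaffected replicate 2 (163 against 168), and slightly brighter on the other 3. For the 88 miRNAs detected on all arrays, the median intensity was 16.9 and 11.4 times the empty-spot median in unaffected replicates 2 and 3, and 1.46 to 4.20 times on the other 4 arrays. Skin identity was plain: miR-203 and miR-205 of keratinocytes were detected on all 6 arrays.

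Most Dlk1-Dio3 miRNAs were not detected over the empty spots in dorsal skin, with or without AA. Of the 37 members, 29 were detected on no array, 5 on 1 array, 2 on 2 arrays and miR-127 alone on 3. Detection on at least 3 of 6 arrays was therefore reached by 1 member (2.70%), against 22.2% of all 707 miRNA probes. At least 1 array was reached by 8 members (21.6%), against 35.2% of all probes. The 29 members detected on no array read 143 to 174 on unaffected replicate 1 and 319 to 441 on AA replicate 2. There they lay below even the median empty spot (274 and 490). In whole skin, fewer cells of a type and less RNA per cell cannot be told apart. A probe below the detection level has no measured absence, because the level was set by the empty spots. On these 2 arrays the median empty spot was brighter than the median miRNA probe (168 and 391).

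The arrays gave 12 detections among 222 member and array combinations, 8 in unaffected skin and 4 in AA skin. By array, 0, 3 and 5 members were detected for the unaffected arrays and 1, 2 and 1 for the AA arrays. The same arrays detected 97, 202 and 202 of all miRNA probes in unaffected skin and 147, 115 and 157 in AA skin. The 2 arrays with the most member detections, unaffected replicates 2 and 3, were also those with the highest signal over empty spots and the most probes detected in all. The part of array signal in the member detections was not tested.

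**Figure D1:**
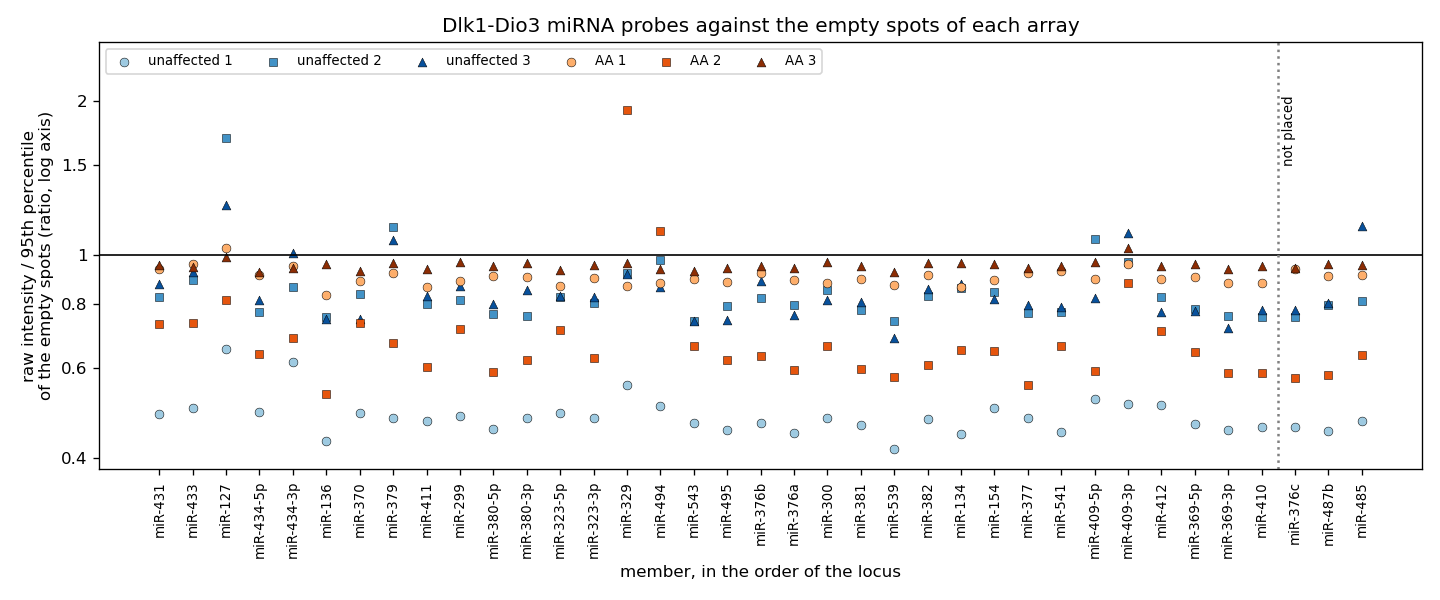
Raw intensity of each of the 37 probes divided by the 95th percentile of the empty spots of the same array (vertical log axis, ratio), in the order of the locus, with 1 point per array and the 3 members without a matched position at the right. Only 12 points lie above the line at 1, and the highest are miR-329 in AA replicate 2 (1.92) and miR-127 in unaffected replicates 2 and 3 (1.69 and 1.25).

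Counted by single spots, the order of the arrays was another one. Of the 185 member spots on an array, 0, 16 and 23 exceeded the 95th percentile of the empty spots for the unaffected arrays, and 16, 8 and 28 for the AA arrays. AA replicate 3 had the most such spots, though only 1 member was detected there by its mean. The shares ran from 0% to 15.1% of member spots and from 14.1% to 34.9% of all miRNA spots. By construction, 5% of the empty spots exceed that level. The member share was below 5% on unaffected replicate 1 (0%) and AA replicate 2 (4.32%), and above it on the other arrays. The 29 members never detected had ratios to that level of 0.417 to 0.508 in unaffected replicate 1, 0.741 to 0.893 in replicate 2 and 0.685 to 0.926 in replicate 3. On the AA arrays their ratios were 0.833 to 0.960, 0.533 to 0.736 and 0.923 to 0.968. These 29 include miR-134, known from rat neurons as a regulator of dendritic spine size, miR-431, linked to muscle regeneration in mice, and miR-410, which closes the cluster.

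In the Rtl1 antisense group, miR-127 carried the signal. miR-127 is fully complementary to the Rtl1 transcript on the opposite strand and directs its cleavage. Its raw intensity was 225, 333 and 286 for the unaffected arrays and 247, 489 and 565 for the AA arrays. It was detected on unaffected replicates 2 and 3, with all 5 spots above the level on each, and on AA replicate 1 with 4 of 5 spots. On AA replicate 3 it fell just short (ratio 0.988, 3 of 5 spots above), and its ratio was 0.654 on unaffected replicate 1 and 0.817 on AA replicate 2, where the empty spots were bright.

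Ranked against the other probes of its own array, miR-127 was steady. It stood at the 80.5th, 81.8th and 79.2th percentile of all 707 miRNA probes for the unaffected arrays and at the 81.0th, 77.8th and 75.8th for the AA arrays. Its range of 5.94 percentile points was the smallest among the 37 members over these 6 arrays, whose median range was 40.0. Ranks of brighter probes vary less. Among the 108 probes of mean percentile 70 to 90 the median range was 13.9. Of these, 13, miR-127 included, had a range no wider than that of miR-127. A minority of the other probes of that brightness were thus as steady.

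The other members of the Rtl1 antisense group gave 1 narrow detection. miR-434-3p, cut from the hairpin next to miR-127, measured 212, 170 and 230 for the unaffected arrays and 227, 411 and 538 for the AA arrays. It passed on unaffected replicate 3 alone, by a narrow margin (ratio 1.01, 3 of 5 spots). The opposite arm miR-434-5p and miR-136, miR-431 and miR-433 were detected on no array. miR-370 was likewise detected on no array, at 168, 165 and 171 for the unaffected arrays and 213, 440 and 530 for the AA arrays.

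**Figure D2:**
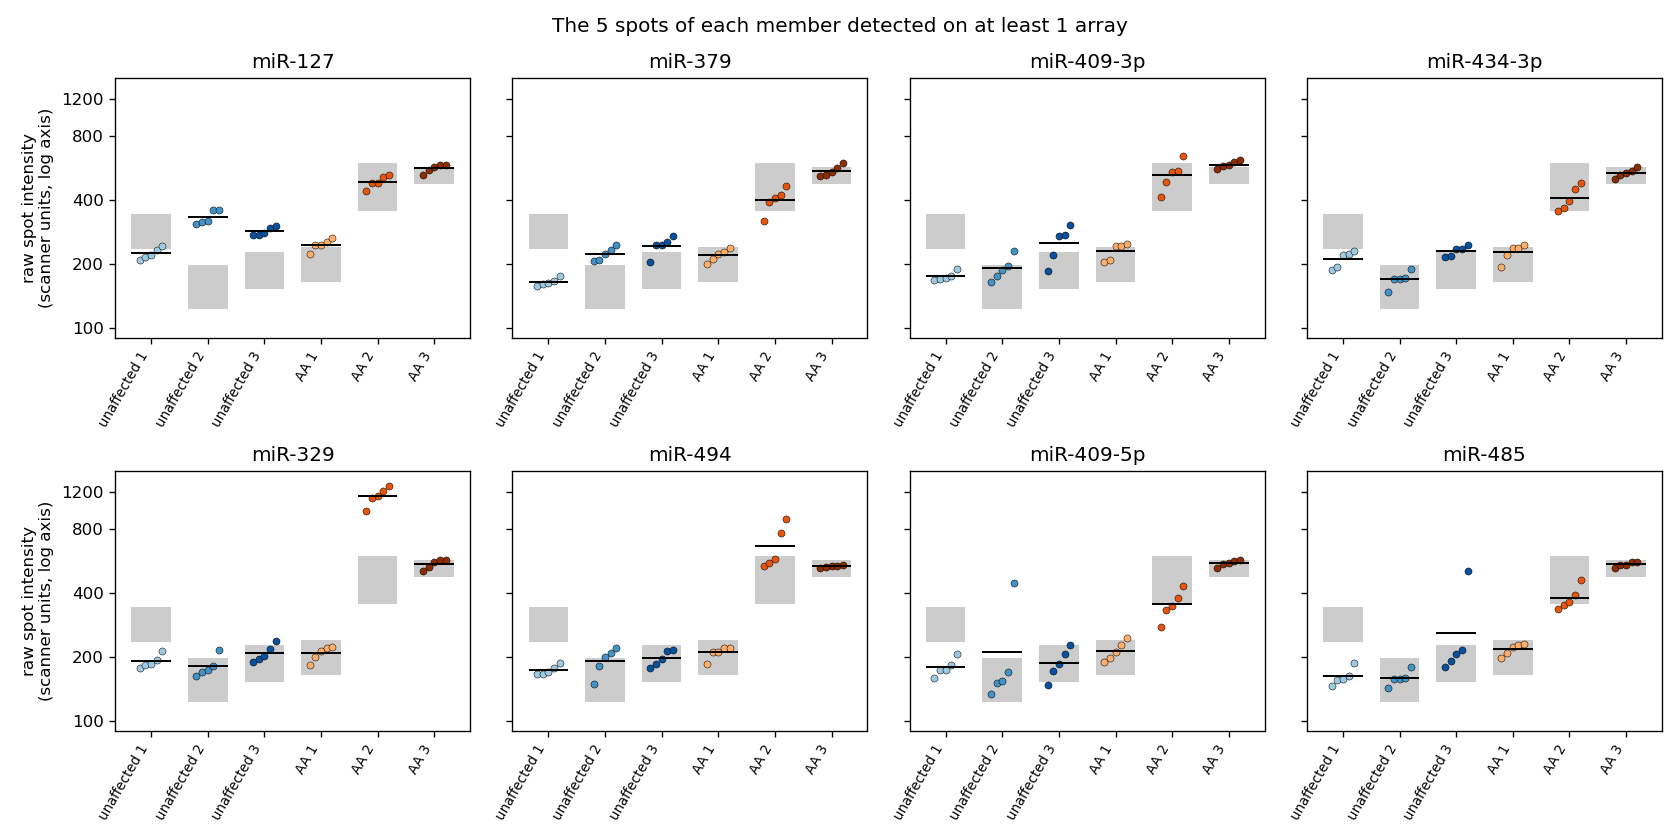
Raw intensity of the 5 spots (points) and their mean (black line) for the 8 members detected on at least 1 array, on a log axis, with the 5th to 95th percentile of the empty spots of each array in grey. miR-127 clears the grey range with all spots in unaffected replicates 2 and 3, miR-329 does so in AA replicate 2, and single bright spots carry miR-409-5p and miR-485.

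In the miR-379 to miR-410 cluster, 6 of 30 members were detected on any array and 0 on 3 or more. miR-379, the first miRNA of the cluster, measured 165, 223 and 245 for the unaffected arrays and 220, 402 and 552 for the AA arrays. It was detected on unaffected replicates 2 and 3 (5 and 4 of 5 spots) and on 0 of 3 AA arrays. The AA arrays give it a bound only, and that bound (7.69 on the normalized log2 scale) lies above its unaffected mean (7.17). That mean also holds unaffected replicate 1, where miR-379 was below the level (ratio 0.480). No fold can therefore be stated.

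miR-409-3p measured 175, 191 and 252 for the unaffected arrays and 230, 527 and 589 for the AA arrays. It was detected on unaffected replicate 3 (3 of 5 spots) and AA replicate 3 (4 of 5 spots), so on 1 array of each group. With the median in place of the mean of its spots it was detected on 3 arrays. Its percentile among all probes ran from 65.6 to 82.5. Its mean normalized log2 level was 7.17 for the unaffected and 7.59 for the AA arrays, a difference of 0.41. The groups overlapped, most arrays were below detection, and the difference was not tested in the main setting.

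By the mean of their spots, miR-329 and miR-494 were detected on AA replicate 2 alone. In rat neurons miR-329, together with miR-134 and miR-381 of the same cluster, is known for activity-dependent dendrite growth. miR-329 measured 191, 181 and 209 for the unaffected arrays, 208 and 550 on the first and last AA arrays, and 1148 on AA replicate 2. All 5 spots on that array, from 974 to 1284, lay above its brightest empty spot at 670. miR-329 was at the 90.9th percentile of all probes there, and between the 12.7th and 74.5th on the other 5 arrays.

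miR-494 measured 174, 193 and 197 for the unaffected arrays, 210 and 535 on the first and last AA arrays, and 666 on AA replicate 2, where 2 of its 5 spots were above the level. With the median of its spots miR-494 was not detected there (577 against 599). By that median it was detected on unaffected replicate 2 (201 against 197), where 3 of 5 spots were above. By the spot mean, 2 of all 707 probes (0.283%) were detected on AA replicate 2 and on no other array. These were miR-329 and miR-494, whose mature sequences start 1.83 kb apart. Both were singled out after the values were seen and no test was made of their pairing. The authors' deposited table of processed intensities has the same shape. There miR-329 is 456 in AA replicate 2 and 24.2 to 71.0 on the other arrays, and miR-494 is 161 and 24.4 to 61.0. Only 1 of 3 AA arrays carries the signal by the spot mean, so no fold between the groups is given for either miRNA.

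The probes miR-758 and miR-679, which lie on either side of this pair, did not share the signal. Their ratios were 0.615 and 0.623 in AA replicate 2. Elsewhere in the locus, miR-341 had its highest ratio on that array (1.13, against 1.11 for miR-494). Unlike the pair, miR-341 also passed on unaffected replicates 2 and 3. miR-362-3p, with the same seed as miR-329 but 9 edits away, was detected on no array.

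The last 2 detections in the cluster each rest on 1 spot. miR-409-5p passed on unaffected replicate 2 with a mean of 212 over spots of 135, 150, 154, 171 and 448. miR-485 passed on unaffected replicate 3 with a mean of 260 over spots of 180, 192, 207, 216 and 506. Without its brightest spot each fell below the level, as did miR-434-3p, and the other 9 of 12 detections stayed above it.

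**Figure D3:**
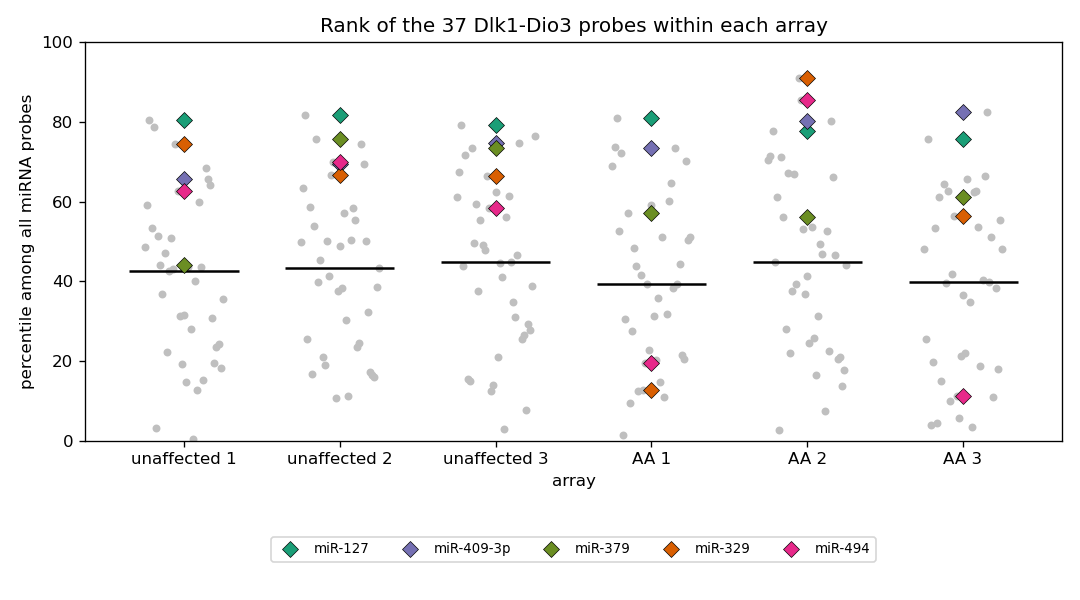
Percentile of each of the 37 probes among all 707 miRNA probes of the same array (vertical axis), by array, with the median of the 37 as a black line and 5 members repeated as coloured diamonds over their grey points. miR-127 stays between 75.8 and 81.8, while miR-329 and miR-494 are highest in AA replicate 2 and lie at 12.7 and 19.5 in AA replicate 1.

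As a group the members sat a little below the middle of each array. Their median percentile was 42.6, 43.3 and 45.0 for the unaffected arrays and 39.5, 45.0 and 39.9 for the AA arrays, so the groups overlapped. Their target GC content (median 45.5%) was close to that of all probes (47.8%).

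The limma comparison of the 2 skins used normalized log2 intensities of the 157 miRNAs detected on at least 3 arrays, and miR-127 was the 1 member among them. miR-127 measured 7.64, 7.81 and 7.56 for the unaffected arrays and 7.72, 7.47 and 7.36 for the AA arrays, and the groups overlapped. The means were 7.67 ± 0.13 and 7.52 ± 0.18 (SD, n = 3 arrays each). The log2 difference, AA minus unaffected, was -0.15 (SE 0.36, 95% interval -0.94 to 0.64, limma adjusted p = 0.929), smaller than its standard error. An exact permutation test of this single value gave p = 0.3 (two-sided, smallest possible 0.1 with 3 arrays against 3). Of the 157 miRNAs, 0 passed an adjusted p under 0.05 (0%), and 12 (7.64%) had an unadjusted p under 0.05, none of them a member.

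The miR-127 difference varied with the background correction and the scaling, and was positive in 2 of 18 alternatives. It was 1.14 after scaling by the 75th percentile of probes detected on every array, where the tested miRNAs as a whole shifted to a median of 0.53. It was 0.40 with the median empty spot subtracted, where spots not above that median were set to a floor. These were all 5 miR-127 spots of unaffected replicate 1 (210 to 243 against 274) and part of those of AA replicate 2 (444 to 525 against 490). The difference was -0.33 after scaling by the 75th percentile over every probe, where the median of the tested miRNAs moved to -0.95. It was -0.23 without normalization, where the median of the tested miRNAs moved to -0.84. None of these passed (limma adjusted p = 0.210 to 0.974 over 18 alternatives).

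**Figure D4:**
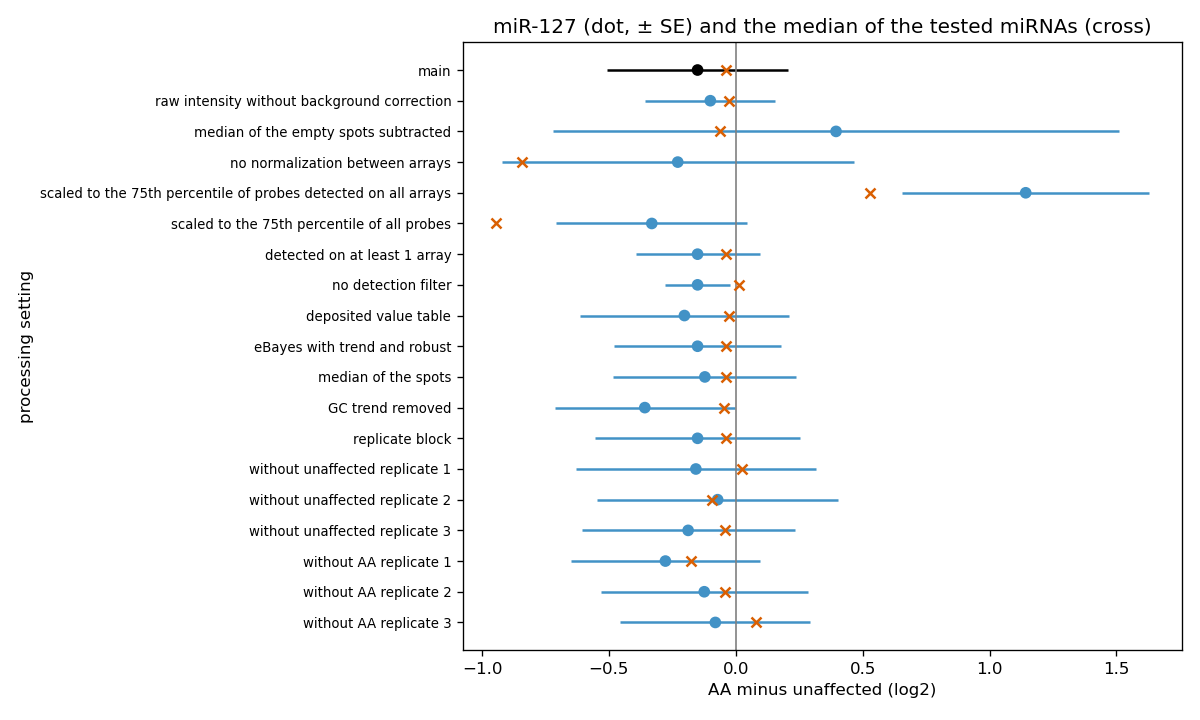
Log2 difference of miR-127, AA minus unaffected (horizontal axis, dot with its standard error), and median of the tested miRNAs (cross) under each processing setting. The difference is -0.15 in the main setting and ranges from -0.36 to 1.14, positive after scaling by the 75th percentile of probes detected on every array or when the median empty spot is subtracted.

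Skeletal muscle markers, which whole dorsal skin holds through its muscle layer, were set beside miR-127 array by array. The 4 markers miR-1, miR-133a, miR-133b and miR-206 were each detected on all 6 arrays, and their mean normalized log2 level was 10.41, 12.61 and 12.04 for the unaffected arrays and 10.52, 10.29 and 11.47 for the AA arrays. Unaffected replicate 2 was highest for both. AA replicate 2 was lowest for the markers and next to lowest for miR-127 (7.47). AA replicate 3 was lowest for miR-127 and above 3 other arrays for the markers. Of 7 neuron markers, 5 were detected on no array, miR-124 and miR-9 among them, and miR-128 and miR-219 on 3 and 1. The part of muscle or nerve in the miR-127 level was not tested.

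Across all 37 members, including those below detection, AA means were higher for 20 and lower for 17, with a median log2 difference of 0.014 against 0.012 for all 707 probes. AA means were the lower ones for 46.4% of all probes. The 3 AA arrays lay wholly above or wholly below the 3 unaffected arrays for 3 members (8.11%), against 14.7% of all probes. Those 3 were miR-369-5p and miR-541, with log2 differences of 0.070 and 0.18, and miR-411, at -0.16. They belong to the 29 never detected, so no difference in the miRNAs is claimed from them.

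Other probes of the same locus behaved alike. Of 38 further probes (25 unstarred and 13 starred strands), 28 were detected on no array, 9 on 1 and miR-341 on 3. miR-341, which lies with miR-370 between the Rtl1 antisense group and the cluster, had ratios of 0.487, 1.09 and 1.12 for the unaffected arrays and 0.977, 1.13 and 0.964 for the AA arrays. Its log2 difference, AA minus unaffected, was 0.42 (SE 0.44, limma adjusted p = 0.748).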

How the data were processed

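The intensity of each spot, a pixel mean with no background subtraction or normalization, comes from the scanner output that the authors deposited. Per the labels' protocols, RNA was poly(A)-tailed, given a tag for Cy3 dye and run on µParaflo chips by an outside company; the labels' extract protocol also names biotin-labelled cRNA. Image software and annotation release were not given in the sources used here. A second table deposited by the authors holds processed intensity (755 rows), whose scaling method is not stated; it served as an alternative. On log2 scale it correlated with the raw values at r = 0.956 to 0.999 per array (88 miRNAs detected on all arrays).

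Spots were corrected with normexp (offset 50; limma 3.58.1, R 4.3.3), log2 values averaged over the 5 spots of a probe and arrays quantile-normalized over 707 miRNA probes. limma (lmFit, eBayes, two-sided) with Benjamini-Hochberg adjustment over 157 tested miRNAs compared the groups, without a block, and was tested on simulated data. The offset compresses differences of dim probes. Alternatives changed background, normalization, filter, source, variance model, spot summary, GC trend and replicate block, and left out each array. Values on every array are given for members detected on at least 2 arrays and for the leading member of each subgroup; other members detected on 1 array were added after their values were seen. Sequences are those of the array files; positions are RefSeq's (GRCm38.p6). Members, lists and tests were chosen with earlier results of these data known. The number of arrays limits the precision.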

Additional observations from a re-analysis of the deposited data

How the results depend on the processing

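The number of members detected on at least 3 arrays was 1 in the main setting and depended on the threshold. It was 0 with the maximum of the empty spots, 0 with their median plus 3 median absolute deviations, and 0 where 4 arrays were required. It was 3 where 2 arrays were required, and 2 (miR-127 and miR-409-3p) with the median of the spots or with a threshold of the median of all miRNA probes plus 3 median absolute deviations. That last threshold and the set of empty spots without background controls were chosen after seeing the data. With single arrays left out the number ran from 0 to 1. It was 0 without unaffected replicate 2, unaffected replicate 3 or AA replicate 1, the arrays on which miR-127 was detected, and the other arrays left it at 1.

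The difference of miR-127 turned positive in 2 of 18 alternatives. It was 1.14 with scaling to the 75th percentile of probes detected on all arrays. It was 0.40 with the median empty spot subtracted, where part of the miR-127 spots stood at a floor. The cause of the change of sign was not tested. With single arrays left out the difference ran from -0.28 to -0.072. miR-127 was not tested where all 6 arrays had to detect a probe. With the replicate block it was -0.15 (SE 0.40, limma adjusted p = 0.951), with 0 calls over all miRNAs; the labels do not say that the numbers pair mice, and deviations of same-numbered arrays correlated at 0.14, -0.10 and -0.12. The count of miRNAs past the threshold ran from 0 to 5 with single arrays left out, at 5 without unaffected replicate 1 and 2 without unaffected replicate 2. In the 19 alternatives 0 calls were members, but miR-127 was the only member tested in most of them. The fit held 8 members where detection on 1 array sufficed and 37 with no detection filter. It held 0 where all 6 arrays had to detect a probe. Using every kind of empty control spot gives the set already used, so it was not run separately. Signal over the empty spots limits what can be said of the 29 members never detected.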
